A study of Mus musculus with 2 samples.

Results

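The genes described here handle iron storage, iron transport and haem breakdown. They are 10 genes fixed by name: the ferritin genes Fth1 and Ftl1, the iron importers Slc11a1 and Slc11a2, the iron exporter Slc40a1, the haem oxygenases Hmox1 and Hmox2, the scavenger receptor Cd163, and the iron regulatory protein genes Aco1 and Ireb2. All 10 were found by symbol among the 69691 rows of the deposited gene tables, of which 21461 are nuclear protein-coding genes. Total RNA (100 ng per library) was depleted of ribosomal RNA and prepared with a ScriptSeq kit. The stated fragment sizes ran from 221 to 1000 bases in library 1 and from 200 to 1000 in library 2. The 2 libraries form 1 group of primary cells labelled megakaryocyte, from male adult C57BL/6J mice aged 5 to 6 weeks, with no treatment or allele named in the labels. The labels number them as biological replicates 1 and 2 but name 1 donor for both, so the spread between them may be partly technical, and nothing in the labels says whether animals were pooled. No second cell type or condition was analysed here, so there is no contrast between conditions.

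The marker genes went against the label. Of 15 megakaryocyte and platelet genes, 12 lay under 1 TPM (a read count divided by transcript length and scaled so that all transcripts of a library sum to 1000000) in both libraries. So did 11827 of all 21461 nuclear protein-coding genes. The platelet glycoprotein genes Gp5 and Gp6 had 0 counts in both, and the highest of the 15, the integrin gene Itgb3, stood at 5.92 TPM in library 1 and 5.66 in library 2. The megakaryocyte list summed to 10.9 and 12.8 TPM. Neutrophil markers (10 genes, led by S100a8) summed to 14125 and 13435 TPM, and monocyte markers (9 genes, led by Lyz2) to 7803 and 10201 TPM. Erythroid markers (12 genes, led by the globin gene Hba-a2) summed to 119 and 57.1 TPM. The cells are therefore called by their label only, as libraries labelled megakaryocyte. Summed read counts were 42703213 and 50532821, so that 1 TPM was worth 100.2 and 114 counts for a transcript of 1000 bases.

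Iron inside a cell is either used, stored in ferritin or exported. Ferritin is a hollow shell built of heavy (Fth1) and light (Ftl1) chains, where the heavy chain oxidises iron and the light chain helps it to mineralise. When haem is broken down, haem oxygenase opens the ring and frees iron, which ferritin can store and ferroportin (Slc40a1) can carry out of the cell. In macrophages of the marrow and spleen this route recycles the iron of old red cells. The iron regulatory proteins, made from Aco1 and Ireb2, bind a short RNA hairpin called the iron-responsive element when iron is scarce. A hairpin before the coding region lets them block translation, and hairpins after it let them protect the message from decay.

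Iron-responsive elements were looked for in annotated transcripts because they connect the storage, export and import genes in 1 control circuit. The pattern, read on the sense strand, was a C, any 5 bases, the loop CAGTGN and 5 bases that pair with the 5 before the loop, with G-U pairs allowed. The windows of 29 bases below are the matches in the leading ferritin and ferroportin transcripts and in 1 form of Slc11a2, written 5′ to 3′ as in the GENCODE M21 transcript sequences, with the unpaired C and the CAGTGN loop in capitals. They lie at chr19:9982732-9982760 on the plus strand (Fth1), chr7:45459779-45459807 on the minus strand (Ftl1), chr1:45925465-45925493 on the minus strand (Slc40a1) and chr15:100395153-100395181 on the minus strand (Slc11a2), on the GRCm38 (mm10) build.
Fth1-201, 5′ UTR: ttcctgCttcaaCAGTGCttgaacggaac
Ftl1-201, 5′ UTR: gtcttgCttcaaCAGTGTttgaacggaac
Slc40a1-201, 5′ UTR: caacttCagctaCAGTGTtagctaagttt
Slc11a2-205, 3′ UTR: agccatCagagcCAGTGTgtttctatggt

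The first 3 windows hold all 5 pairs. Of 58797 annotated protein-coding transcripts, 565 (0.961%) hold the pattern with 5 pairs, so that a match is uncommon, but it is a match of letters and not a measured binding site. The Slc11a2 window has 4 of 5 pairs, a relaxed form that was tried after the strict pattern had found nothing in Slc11a2. With at least 4 pairs, 4555 transcripts (7.75%) match. The loops begin at base 99 of Fth1-201, base 90 of Ftl1-201 and base 102 of Slc40a1-201, in each case ahead of the coding region. In Slc11a2-205 the loop begins at base 1809, after the end of the coding region at base 1762.

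Among the other members, Hmox1, Hmox2, Cd163, Aco1 and Ireb2 held no match under either pattern, and Slc11a1-201 held 1 with 4 pairs inside its coding region. Of the iron genes outside the list, the transferrin receptor transcript Tfrc-201 held 4 matches with 5 pairs, all in its 3′ UTR. The first of them, at chr16:32631219-32631247 on the plus strand, is shown for comparison because this message carries the element after the coding region.
Tfrc-201, 3′ UTR: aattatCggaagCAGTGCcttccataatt

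**Figure D1:**
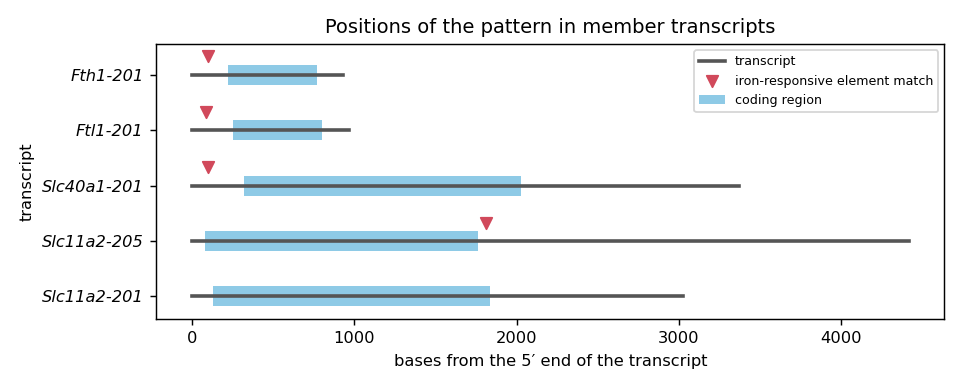
Positions of iron-responsive element matches (triangles) along 5 annotated transcripts, in bases from the 5′ end, with the coding region as a box. Fth1-201, Ftl1-201 and Slc40a1-201 carry the match before the coding region, Slc11a2-205 carries it after (with 4 of 5 pairs), and Slc11a2-201 carries none.

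The ferritin genes stood far above the other members. Of the 10 genes, 8 reached 1 TPM or more in both libraries, against 42.4% of all nuclear protein-coding genes (9100 of 21461). The median over the 10 of the mean TPM was 9.27, against 0.28 over all nuclear protein-coding genes. Ferritin light and heavy chain RNA together made up 87.7% of the TPM of the 10 genes in library 1 and 89.7% in library 2. They summed to 509 and 590 TPM, which is 0.212% and 0.220% of the TPM of all nuclear protein-coding genes.

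Ftl1 (chromosome 7, 45457944 to 45459884, minus strand), the ferritin light chain, had 394 TPM in library 1 and 490.5 in library 2 (442 ± 68.0, SD, n = 2) from 21437 and 28810 counts. It ranked 75 of 21461 nuclear protein-coding genes. Fth1 (chromosome 19, 9980598 to 9985098, plus strand), the heavy chain with the ferroxidase activity, had 115 and 99.0 TPM (107 ± 11.2) and ranked 346. Light chain RNA exceeded heavy chain RNA in both libraries, by 3.43-fold in library 1 (95% counting interval 3.34 to 3.52) and 4.95-fold in library 2 (4.83 to 5.08). The intervals, of the Clopper-Pearson kind, cover counting error only, and these do not overlap.

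That ratio rests in part on how Ftl1 reads were shared among its transcripts. Ftl1-201, the transcript of 968 bases that holds the element shown above, took 43.1% and 39.0% of the gene's TPM, or 59.1% and 55.3% of its counts. A transcript of 604 bases, ENSMUST00000132205, took 54.5% and 58.8% of the TPM. Its identifier and those of the remaining 3 Ftl1 transcripts of the deposited tables have no entry in GENCODE M21, so their sequences were not searched for the element. Together these transcripts held 40.9% and 44.7% of the counts. Set against Ftl1-201 alone, at 170 and 191 TPM, Fth1 was still the lower, and the light to heavy ratio was 1.48 in library 1 and 1.93 in library 2. Fth1 has a single transcript in the tables, Fth1-201, of 866 bases there and 929 bases in GENCODE M21, where the element's position was read.

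Ferritin genes have many near-identical copies, so reads can be split or shared among them. By sequence match (at least 80% identity over 300 bases), 19 copies of Ftl1 were found in the annotation, of which 13 had rows and 3 had counts. Those 3 held 497 and 654 counts, equal to 2.32% and 2.27% of the Ftl1 count, nearly all of it in Ftl1-ps1 (497 and 652 counts), which matches Ftl1 at 99.6%. For Fth1 the copies held 30.0 and 27.0 counts, or 0.406% and 0.380% of its count. Adding all copies to their subunit left the mean heavy to light ratio at 0.244, against 0.247 ± 0.0633 without them.

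The importers differed widely in level. Slc11a1 (chromosome 1, 74375195 to 74386062, plus strand), also known as NRAMP1, moves metal ions out of the phagosome of macrophages and neutrophils. It had 11.5 TPM in library 1 and 13.2 in library 2 (12.3 ± 1.22) from 1753 and 2205 counts. Its relative Slc11a2 (chromosome 15, 100387898 to 100425072, minus strand), also known as DMT1, imports iron at the gut surface and out of the endosome after transferrin uptake. It had 1.49 and 0.85 TPM (1.17 ± 0.453) from 408 and 292 counts. Slc11a1 RNA was thus 7.70 times Slc11a2 RNA in library 1 (6.89 to 8.58) and 15.5 times in library 2 (13.8 to 17.6). Slc11a1 was the higher in both libraries, although the size of the ratio differed between them beyond counting error. With the deposited posterior mean TPM, in which Slc11a2 stood at 1.98 and 1.41, the ratios were lower, at 5.95 and 9.60. The deposited interval for Slc11a2, of unstated level, ran from 1.56 to 2.43 TPM in library 1 and from 1.019 to 1.88 in library 2, above the TPM used here in both. The neutrophil and monocyte markers, from cell types that use Slc11a1, stood at the summed levels given above, and their part in its level was not tested.

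Slc11a1 was assigned to a mixture of coding and noncoding transcripts. The protein-coding Slc11a1-201 took 53.3% and 55.2% of the gene's TPM (6.11 and 7.28 TPM) but 73.1% and 78.2% of its counts. The remainder went to transcripts annotated as noncoding, which made up 46.7% and 44.8% of the TPM. Slc11a1-206, a processed transcript of 378 bases, took 21.5% and 27.8% from only 39.3 and 61.6 counts, since TPM divides by an effective length of 159 and 147 bases. The retained-intron forms Slc11a1-208 (13.5% and 6.64%) and Slc11a1-202 (11.1% and 2.73%) took smaller shares in library 2 than in library 1, while the retained-intron forms Slc11a1-203 (0% and 3.65%) and Slc11a1-204 (0% and 2.99%) had counts in library 2 only. With only the coding transcripts that hold the most counts, the ratio to Slc11a2 was 4.46 and 10.6.

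Slc11a2 had counts both in a form with the relaxed match in its 3′ UTR and in a form with no match. Slc11a2-201, whose coding region spans 568 codons, holds no match and took 91.5% of the gene's TPM in library 1 and 80.9% in library 2. Slc11a2-205, of 561 codons and with the window printed above, took 3.30% and 18.3%. In counts, Slc11a2-201 had 383 and 218, while Slc11a2-205 had 20.7 (posterior SD 4.19) and 73.8 (posterior SD 5.65). Slc11a2-201, without the match, was the more abundant in both libraries, and Slc11a2-205, with the relaxed match, was higher in library 2 than in library 1 in counts and in share. The posterior SD covers the assignment of reads among transcripts, no test was run on single transcripts, and the deposited posterior mean TPM gave Slc11a2-201 the smaller shares of 66.6% and 45.8% and Slc11a2-205 2.63% and 10.8%.

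Slc40a1 (chromosome 1, 45908068 to 45926523, minus strand) encodes ferroportin, the iron exporter of vertebrate cells. It had 5.48 TPM in library 1 and 4.95 in library 2 (5.22 ± 0.375) from 1387 and 1375 counts. Slc40a1-201, with the element in its 5′ UTR, took 72.2% and 72.3% of the TPM, the most even share among members that had more than 1 transcript with counts in both libraries. The retained-intron forms Slc40a1-202 and Slc40a1-208 hold the same window and took 3.77% and 0.43%, and 2.80% and 3.30%. Of the short forms, Slc40a1-205 (370 bases) took 0% and 20.8%, the latter from 16.4 counts, and Slc40a1-204 took 12.9% and 3.17%.

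Of the haem oxygenases, the form usually described as constitutive was the higher. Hmox2 (chromosome 16, 4726361 to 4766742, plus strand) had 26.7 TPM in library 1 and 24.6 in library 2 (25.7 ± 1.51). Hmox1 (chromosome 8, 75093621 to 75100589, plus strand), the form that haem and oxidative stress induce, had 12.05 and 11.5 TPM (11.8 ± 0.410). Hmox2 RNA was 2.22 times Hmox1 RNA in library 1 (2.09 to 2.35) and 2.14 times in library 2 (2.03 to 2.27), so that this ratio did not differ between libraries beyond its counting intervals. Hmox1-201 took 100% and 98.6% of its gene's TPM, and Hmox2-201 92.0% and 98.4%. The span of Hmox2, introns included, overlaps that of Cdip1 on the opposite strand by 16395 bases, and also that of Gm15859 on the same strand. Over the whole gene, Cdip1 had 472 and 615 counts and Gm15859 had 57 and 44. Whether the authors' counting used strand is not given in the sources used here, so reads in the overlap cannot be assigned with certainty.

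Cd163 (chromosome 6, 124304656 to 124330527, plus strand), the macrophage receptor that takes up haemoglobin bound to haptoglobin, was the lowest member. It had 0.65 TPM in library 1 and 0.74 in library 2 (0.695 ± 0.0636) from 274 and 350 counts, all assigned to Cd163-201. The deposited posterior mean TPM instead gave the coding Cd163-202 a share of 6.01% and 16.2%. The level of the gene was low but well counted, at percentile 54.1 of nuclear protein-coding genes. Of the 11 tissue macrophage markers, 7 lay under 1 TPM in both libraries, as did 11827 of all 21461 nuclear protein-coding genes. Marco was at 0 counts in both, for a limit of 0.0323 TPM in library 1 and 0.0288 in library 2 by counting error alone (3 counts), whereas the deposited interval, of unstated level, reached 0.203 and 0.191 TPM. The macrophage list summed to 30.6 and 36.4 TPM, of which Adgre1, also expressed by monocytes, gave 24.5 and 28.7. In bulk RNA, fewer cells of a type and less RNA per cell cannot be told apart.

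The iron regulatory protein genes were close to each other in level. Aco1 (chromosome 4, 40143081 to 40198338, plus strand) encodes the protein that is an aconitase when it carries an iron-sulphur cluster and an RNA-binding protein when it does not. It had 7.83 TPM in library 1 and 5.74 in library 2 (6.79 ± 1.48). Ireb2 (chromosome 9, 54863789 to 54912530, plus strand), whose protein is degraded when iron is plentiful, had 5.83 and 5.87 TPM (5.85 ± 0.0283). The Aco1 to Ireb2 ratio was 1.34 in library 1 (1.27 to 1.42) and 0.978 in library 2 (0.925 to 1.03), so that neither gene was the higher in both libraries.

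The order of these paralogues turned on a short noncoding Aco1 transcript. Aco1-204, a processed transcript of 714 bases, took 41.6% of the Aco1 TPM in library 1 from 160 counts and 14.2% in library 2 from 44.5 counts. The coding Aco1-201, of 3832 bases, held 91.2% and 97.8% of the counts and stood at 4.57 and 4.92 TPM. The libraries' fragment size ranges differed at their lower end, and the part of this in the share of short transcripts was not tested. Ireb2 has 1 transcript in the tables, Ireb2-201. Comparing only the coding transcripts, Aco1 was the lower of the paralogues in both libraries, with ratios of 0.784 (0.739 to 0.833) and 0.838 (0.794 to 0.885).

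**Figure D2:**
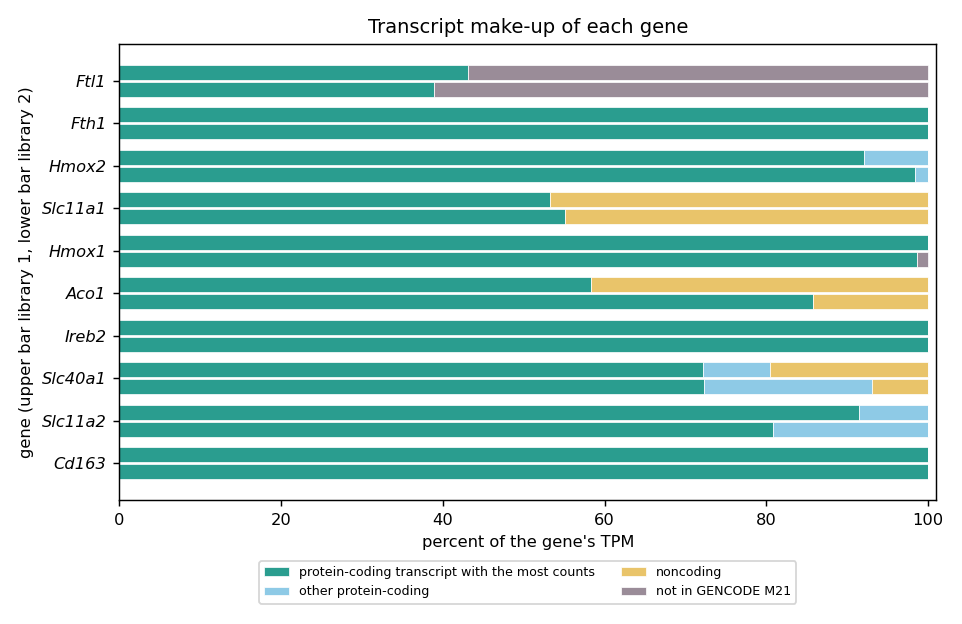
Percent of each gene's TPM (horizontal axis) by transcript class, with library 1 as the upper bar and library 2 as the lower bar of each pair. By these percents, Fth1, Ireb2 and Cd163 rest on 1 coding transcript. Noncoding forms take 46.7% and 44.8% of Slc11a1 and 41.6% and 14.2% of Aco1. Transcripts whose identifiers have no entry in GENCODE M21 take over 50% of Ftl1.

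From highest to lowest mean TPM the order was Ftl1, Fth1, Hmox2, Slc11a1, Hmox1, Aco1, Ireb2, Slc40a1, Slc11a2 and Cd163. The library values of Slc11a1 and Hmox1 overlapped, as did those of Aco1 and Ireb2, so the order within those pairs is not settled. The other neighbours did not overlap, although Ireb2 at 5.83 or more and Slc40a1 at 5.48 or less lay close, as did Slc11a2 at 0.85 or more and Cd163 at 0.74 or less. With the deposited posterior mean TPM, Slc40a1 (5.86 and 5.3) and Ireb2 (5.76 and 5.82) did overlap, so their order is not settled either. Counting only the coding transcript with the most counts moved Hmox1 (12.05 and 11.3 TPM) above Slc11a1 and Ireb2 above Aco1, and left the other positions as they were, with Slc11a2 (1.37 and 0.69 TPM) then overlapping Cd163. The genes ranged from percentile 54.1 (Cd163) and 57.2 (Slc11a2) to 98.4 (Fth1) and 99.7 (Ftl1) of nuclear protein-coding genes.

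**Figure D3:**
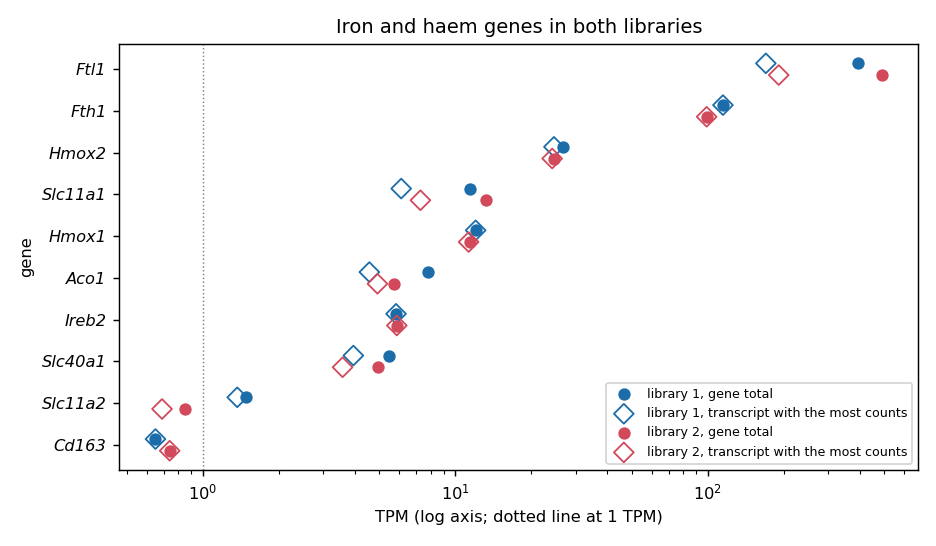
TPM (log axis, dotted line at 1 TPM) of the 10 genes in library 1 and library 2, as the gene total (filled points) and as the coding transcript with the most counts (open diamonds). Ferritin genes sit at 99.0 TPM or more, Cd163 sits under 1 TPM in both libraries, and the diamonds fall clearly left of the gene totals for Ftl1, Slc11a1, Aco1 and Slc40a1. In library 2 the Slc11a2 diamond also falls left of its gene total, at 0.69 against 0.85 TPM.

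The libraries were next compared with each other, gene by gene. Counts were scaled for library size and composition, and each gene was tested with a two-sided exact binomial test across the 12081 genes whose counts averaged 10 or more, called at an adjusted p of 0.05. The test holds counting error alone, compares these libraries and not conditions, and has no replicate check. Of the 10 genes, 6 were called, against 65.6% of all genes tested, so the genes were called about as often as others. Only Ftl1 was called higher in library 2 (background 33.1%), and 5 were called higher in library 1 (background 32.6%): Fth1, Slc11a2, Slc40a1, Hmox1 and Hmox2. The median absolute log2 ratio was 0.14 over the 10 genes and 0.20 over all genes tested.

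Slc11a2 differed the most between the libraries. Its log2 ratio of library 2 over library 1 was -0.73 (95% counting interval -0.95 to -0.51; exact binomial test, Benjamini-Hochberg adjusted p 1.7e-10), or 1.66-fold higher in library 1. It was also the only one of the 10 genes called by edgeR's exact test with an assumed biological coefficient of variation of 0.1 (adjusted p 0.018), which called 12.9% of all genes tested (7.23% higher in library 1). That assumed variation is below the 0.241 estimated when the libraries are taken as replicates of 1 group. With 0.241, tried after seeing the data, edgeR called none of the 10 genes and 4.02% of all genes tested. None of the 10 reached an unadjusted p of 0.05, and Slc11a2 had an unadjusted p of 0.16 (exact test). Because 0.241 was estimated from these same libraries, it holds the difference under test and cannot serve as an independent check. The erythroid markers, whose cells use Slc11a2, moved in the same direction (median log2 ratio -1.06). By the exact binomial test, 11 of 12 were called higher in library 1, against 32.6% of all genes tested. Their part in the Slc11a2 difference was not tested.

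The ferritin chains moved apart. Fth1 had a log2 ratio of -0.30 (-0.35 to -0.26; adjusted p 4.7e-35, exact binomial test) and Ftl1 one of 0.18 (0.15 to 0.21; adjusted p 3.9e-42, exact binomial test), so that the light chain was higher and the heavy chain lower in library 2. With edgeR at the assumed variation the adjusted p was 0.44 for Fth1 and 0.74 for Ftl1. Slc40a1 had a log2 ratio of -0.26, Hmox1 of -0.16 and Hmox2 of -0.13, with adjusted p of 7.5e-06, 0.0025 and 0.00012 by the exact binomial test and 0.58, 0.80 and 0.84 by edgeR. These differences passed the threshold with counting error alone and missed it once variation between replicates was assumed.

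Slc11a1, Cd163, Aco1 and Ireb2 were not called. Their log2 ratios were 0.08 (-0.01 to 0.18), 0.11 (-0.13 to 0.34), -0.06 (-0.15 to 0.03) and -0.05 (-0.12 to 0.02), with adjusted p of 0.098, 0.44, 0.24 and 0.17 by the exact binomial test. The Aco1 counts were thus not told apart between libraries even though its TPM was lower in library 2, where fewer of its counts lay in the short transcript. Beside these values, the exact binomial test called 8 of 10 neutrophil markers higher in library 1 (background 32.6%, median log2 ratio -0.22). It called 8 of 9 monocyte markers higher in library 2 (background 33.1%, median 0.14). With edgeR at the assumed variation of 0.1, none of the markers of either list was called. Their part in the differences of the iron genes was not tested.

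**Figure D4:**
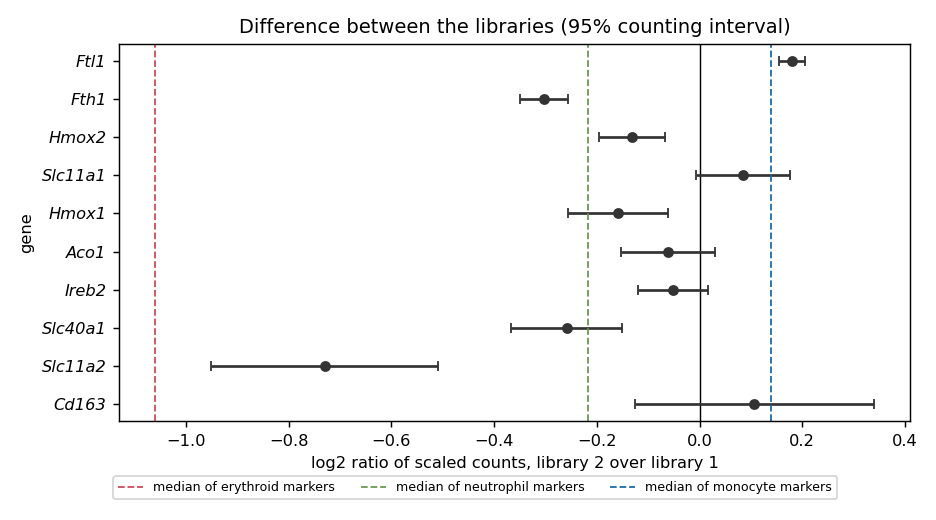
Log2 ratio of scaled counts, library 2 over library 1 (horizontal axis), for the 10 genes with 95% counting intervals, and the median log2 ratio of erythroid, neutrophil and monocyte markers as dashed lines. Slc11a2 lies furthest left at -0.73 and Ftl1 furthest right at 0.18, and the intervals of Slc11a1, Aco1, Ireb2 and Cd163 cross 0.

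Around these 10 genes, a wider list of 40 genes of iron and haem handling was read by role. Of the 40, 24 reached 1 TPM or more in both libraries, 15 lay under 1 TPM in both, and 6 had 0 counts in both. Over all 21461 nuclear protein-coding genes these counts were 9100, 11827 and 8014. The median of the mean TPM was 4.56 over the 40, against 0.28 over all nuclear protein-coding genes. Between the libraries, 22 of the 32 genes tested were called, with 6 higher in library 2 and 16 higher in library 1, which as a share of those tested is close to the 65.6% of all genes, though the balance leaned to library 1. With edgeR at the assumed variation of 0.1, 1 was called higher in library 2 and 6 higher in library 1, against 5.65% and 7.23% of all genes tested.

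Among the uptake genes, 6 of 11 reached 1 TPM in both libraries, against 42.4% of all nuclear protein-coding genes. Trf, the plasma iron carrier transferrin, led with 23.1 TPM in library 1 and 36.03 in library 2, and was called higher in library 2 (log2 ratio 0.29). Tfrc, the transferrin receptor whose 3′ UTR carries the 4 matches, had 11.0 and 8.12 TPM and was called higher in library 1 (log2 ratio -0.45). The hepatic transferrin receptor gene Tfr2, the reductase genes Steap4 and Cybrd1 and the importer gene Slc39a14 stayed under 1 TPM in both. Of the 10 uptake genes tested, 7 were called higher in library 1 and 2 higher in library 2, against 32.6% and 33.1% of all genes tested.

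Genes that load and open ferritin were well expressed. Ncoa4, the receptor that delivers ferritin to the lysosome, had 21.5 and 22.6 TPM and was not called (log2 ratio 0.02). Pcbp2, an iron chaperone, had 20.5 and 17.0 TPM and was called higher in library 1 (log2 ratio -0.34). Mitochondrial ferritin, Ftmt, had no counts in either library, for an upper limit of 0.0244 and 0.0217 TPM. The ferroxidases that work beside ferroportin were low, with Cp at 0.75 and 0.97 TPM and Heph at 0.15 and 0.02 TPM, the latter from 26 and 9 counts.

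Of the 11 regulators, 6 reached 1 TPM in both libraries and 4 had no counts. Over all 21461 nuclear protein-coding genes, 9100 and 8014 did so. Fbxl5, the ubiquitin ligase subunit that senses iron and marks the Ireb2 protein for degradation, had 26.6 and 26.8 TPM. Bach1, the haem-sensing repressor of Hmox1 and the ferritin genes, had 24.4 and 24.9 TPM, and neither gene was called between libraries (log2 ratios 0.02 and 0.01). Spic, a transcription factor of iron-recycling macrophages, had 0.43 and 0.08 TPM from 53 and 10 counts. It was called higher in library 1 by the exact binomial test (log2 ratio -2.65, adjusted p 1.9e-09) and by edgeR at the assumed variation of 0.1 (adjusted p 3.4e-06), the largest log2 ratio among the 32 genes tested. Hamp, Hfe2, Bmp6 and Tmprss6, the hepcidin gene and its regulators that act mainly in and around the liver cell, had 0 counts in both, which for Hamp allows up to 0.174 and 0.164 TPM.

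Among 10 other haem genes, 7 reached 1 TPM in both libraries, against 42.4% of all nuclear protein-coding genes. Hp, which encodes the haptoglobin whose complex with haemoglobin Cd163 takes up, had 160 and 183 TPM and was far above its receptor. Lrp1, the receptor for haem bound to haemopexin, had 17.8 and 17.05 TPM, while haemopexin itself, Hpx, had 0 and 0.08 TPM. Slc46a1 lay at 0.09 and 0.21 TPM, and the exporter relative Flvcr2 had 0 counts in both, which allows up to 0.00933 and 0.00823 TPM. Only Abcg2, an exporter of porphyrins among other substrates, was called higher in library 2 by edgeR (adjusted p 0.011, log2 ratio 0.76). It was named after its values were seen.

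The iron-withholding genes were among the highest of the 40. Ltf, the iron-binding lactoferrin of neutrophil granules, had 396 and 337 TPM. Lcn2, which captures bacterial iron carriers, had 273 and 187 TPM. Both were called higher in library 1 by the exact binomial test (log2 ratios -0.30 and -0.63), as were 8 of the 10 neutrophil markers, and edgeR called Lcn2 (adjusted p 0.022) and not Ltf (adjusted p 0.44).

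**Figure D5:**
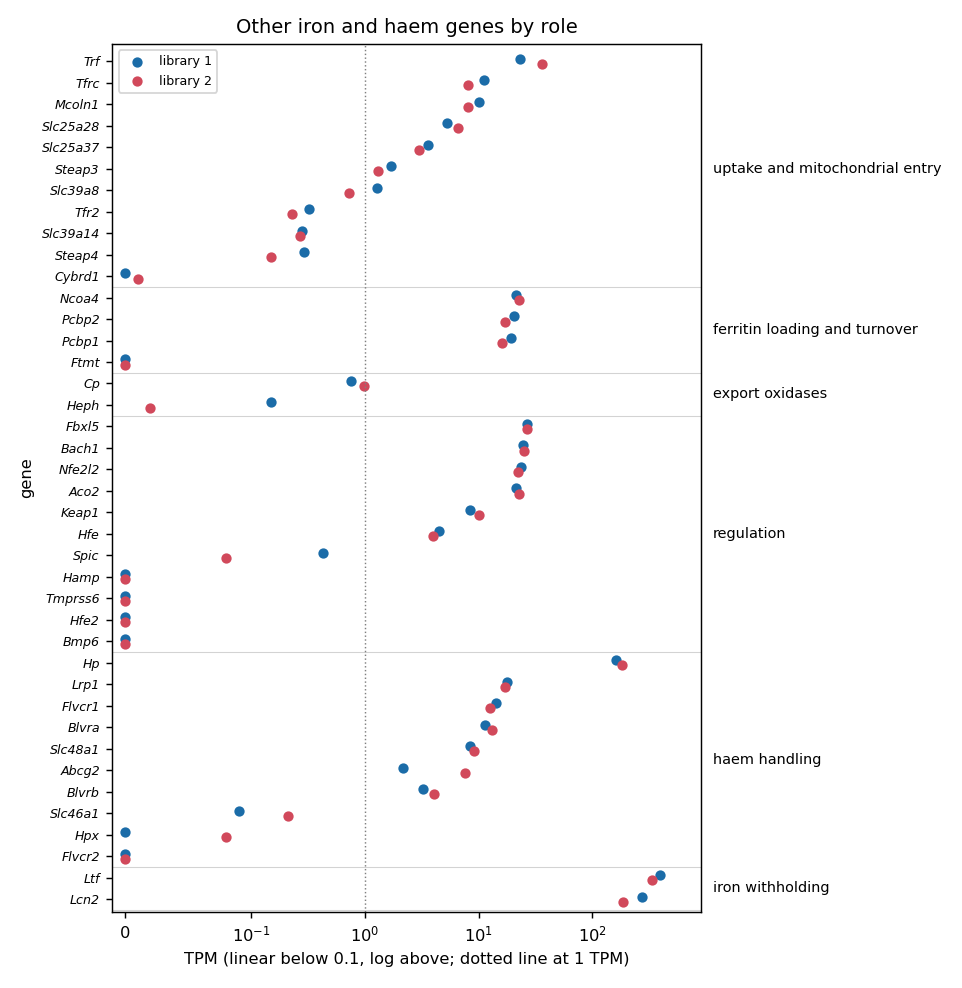
TPM of 40 other iron and haem genes (vertical axis, grouped by role) in library 1 and library 2, on an axis that is linear below 0.1 and logarithmic above, with a dotted line at 1 TPM. Ltf, Lcn2 and Hp lie above 100 TPM in both libraries, and 6 genes lie at 0 in both.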

How the data were processed

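The authors deposited 1 gene table and 1 transcript table for each of the 2 libraries, made on mm10 with GENCODE M4 per the text files deposited with them. The aligner, the quantifier and any use of strand are not given in the sources used here. Expected counts, as deposited, are estimates of reads per gene or transcript without normalization. The deposited TPM values are scaled to sum to 1000000 over all rows, of which nuclear protein-coding genes held 24.0% and 26.8%. The deposited percent values give each transcript's share of its gene's TPM. All ratio and log2 values were computed here.

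Symbols, coordinates and transcript sequences came from GENCODE M21 on the same build, matched by identifier without version (42462 of 69691 rows). The genes, the lists and the rule for naming genes were chosen with earlier results of these data known. The rule named all 10 genes, every transcript with 10% or more of its gene's TPM in either library, the 2 highest genes of each wider list and those under 1 TPM in both, and the highest marker of each list with those at 0 counts. Not every gene the rule takes is reported here by name.

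For the comparison between libraries, counts were rounded to whole numbers and scaled with edgeR 4.0.16 (TMM) in R 4.3.3. The exact binomial test used scipy 1.17.1, with Benjamini-Hochberg adjustment over the 12081 genes tested. Its check on simulated data used counts with counting error alone, so it cannot show how the test behaves when replicates vary. Copies were found with blastn 2.17.0. Intervals and the limit of 3 counts hold counting error alone, because without molecular identifiers several reads can stem from 1 molecule. DESeq2 1.42.0 size factors, edgeR's exact test, other TPM levels and estimates, and leaving out a library were alternatives. Promoter and protein sequences were not used here.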

Additional observations from a re-analysis of the deposited data

How the results depend on the processing

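The count of 8 genes at 1 TPM or more became 7 at 5 TPM, 10 at 0.5 TPM, 9 with posterior mean TPM and 10 with TPM rescaled over nuclear protein-coding genes, and the wider list's 24 ranged from 19 to 27 over the same settings. Using only the coding transcript with the most counts, chosen after seeing the data, moved the mean ratio of Fth1 to Ftl1 from 0.247 to 0.597, of Hmox1 to Hmox2 from 0.459 to 0.478 and of Aco1 to Ireb2 from 1.16 to 0.811. The share of Slc11a2 TPM in forms matching the iron-responsive element pattern was 0% with 5 pairs and 10.8% with 4 of 5 pairs. The relaxed pattern was also chosen after seeing the data. Posterior mean TPM moved the ratio of Slc11a1 to Slc11a2 from 11.6 to 7.78. The cause was not tested for any of these.

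Leaving out each library in turn gave 8 to 9 genes of the 10 and 24 to 25 of the 40 at 1 TPM, and ratios of 0.202 to 0.291 (Fth1 to Ftl1), 7.70 to 15.5 (Slc11a1 to Slc11a2), 0.451 to 0.466 (Hmox1 to Hmox2) and 0.978 to 1.34 (Aco1 to Ireb2). With the strict pattern no Slc11a2 transcript held a match, so its share was fixed at 0% whichever library was left out. The count of 6 genes called between libraries fell to 1 under edgeR's exact test at an assumed coefficient of variation of 0.1 and to 0 at the 0.241 estimated from the libraries (added after seeing the data; 0 at an unadjusted p of 0.05), and stayed at 6 with DESeq2 size factors, with summed counts as library sizes and without a filter on low counts. All 10 log2 ratios kept their sign under those 5 alternatives, which moved the median of all genes by at most 0.015. The edgeR tests and the unfiltered setting kept the same library sizes, so their ratios could hardly change. Their kept signs are therefore no check on the ratios. No paired analysis was possible because the libraries form a single group. With 1 group of 2 libraries, no difference between conditions can be measured.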
